A study of Mus musculus with 6 samples.

Results

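The 5 genes described here serve in lipid handling: the lipase gene Lpl, the lipoprotein receptor genes Vldlr and Lrp8, the fatty acid carrier gene Fabp5 and the desaturase gene Scd2. They are 5 of 2002 genes that could be named on the arrays, and 8 of 45269 probes bear their names: 1 each for Lpl, Lrp8 and Scd2, 3 for Vldlr and 2 for Fabp5. Probes were taken by the symbol in the authors' deposited table of called probes, or by the Entrez number beside it. No probe outside that table could be named, so any further probes of the 5 genes would not have been seen. In cells transfected with siRNA against Gata4 the level of the 5 genes was between 52.1% and 62.7% of that in control cells. Every probe in that table had been selected by the authors for a difference on these same arrays, and the 5 genes were then picked from it for their shared fall. Their differences are therefore given as a description, and whether they pass a test is no evidence. Nor is agreement between probes of the same gene.

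The cells were TM4, an immortalized line derived from mouse Sertoli cells, the somatic cells that surround and feed developing sperm. Both groups were grown in medium with fetal bovine serum and transfected with Lipofectamine RNAiMAX at 0.1 µM siRNA, and each had 3 samples on Illumina MouseWG-6 arrays. The Gata4 siRNA group received a pool of 4 small interfering RNAs against Gata4, which encodes a zinc finger protein that binds DNA and regulates genes in gonads and heart, and the NT siRNA group, the control, received 1 non-targeting sequence. The time from transfection to RNA extraction is not given in the sources used here, the sample labels state passage 12 where the protocol states 13, and nothing says that replicates were separate cultures. The sample titles, which give 3 samples to each group, set the groups here, while the series' design text counts samples 3 to 6 as controls. The siRNAs as the labels list them are shown because they are the only difference between the groups that the labels state:
Gata4 siRNA 1: agagaauagcuucgaacca
Gata4 siRNA 2: ggauauggguguuccgggu
Gata4 siRNA 3: cugaauaaaucuaagacgc
Gata4 siRNA 4: ggacauaaucaccgcguaa
non-targeting siRNA: ugguuuacaugucgacuaa

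Lipoprotein lipase frees fatty acids from the triglycerides of circulating lipoproteins. The very low density lipoprotein receptor and the apolipoprotein E receptor encoded by Lrp8 belong to one family of lipoprotein receptors. Both bind apolipoprotein E and also serve as receptors for reelin, and in the mouse testis the Lrp8 product takes selenoprotein P into Sertoli cells. Inside the cell, fatty acid binding proteins carry fatty acids through the cytosol, and stearoyl-CoA desaturases turn saturated fatty acids into monounsaturated ones. Sertoli cells are known to oxidize fatty acids for energy and to store them in lipid droplets.

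Of the 5 genes, Vldlr and Lrp8 were found among the promoter windows of RefSeq (assembly GRCm38.p6, from 250 bases before to 50 bases after a transcript start), Vldlr with 2 starts and Lrp8 with 3. They are shown because both receptors belong to the same family and were lower together. Motifs searched on both strands were the GATA motif (AGATAA or AGATAG or TGATAA or TGATAG), the core of the hypoxia response element (ACGTG or GCGTG), the sterol regulatory element (TCACNCCAC), the ATF4 composite element (TGATGNAA) and the nuclear receptor half-site (AGGTCA). Capitals mark every match, and positions give the leftmost base of a match, counted from 0 at the transcript start:
Vldlr upstream start (chr19:27216234-27216533, + strand): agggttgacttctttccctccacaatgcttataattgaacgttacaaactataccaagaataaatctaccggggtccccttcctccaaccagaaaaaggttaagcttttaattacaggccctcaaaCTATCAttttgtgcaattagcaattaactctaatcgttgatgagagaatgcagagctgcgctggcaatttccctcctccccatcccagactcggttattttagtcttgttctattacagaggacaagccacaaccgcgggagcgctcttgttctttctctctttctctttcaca
Vldlr downstream start (chr19:27216770-27217069, + strand): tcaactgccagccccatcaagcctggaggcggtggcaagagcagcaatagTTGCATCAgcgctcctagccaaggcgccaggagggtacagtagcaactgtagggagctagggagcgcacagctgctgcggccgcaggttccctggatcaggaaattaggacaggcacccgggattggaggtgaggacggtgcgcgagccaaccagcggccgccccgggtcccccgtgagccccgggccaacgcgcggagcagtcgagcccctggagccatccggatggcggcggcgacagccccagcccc
Lrp8 upstream start (chr4:107802635-107802934, + strand): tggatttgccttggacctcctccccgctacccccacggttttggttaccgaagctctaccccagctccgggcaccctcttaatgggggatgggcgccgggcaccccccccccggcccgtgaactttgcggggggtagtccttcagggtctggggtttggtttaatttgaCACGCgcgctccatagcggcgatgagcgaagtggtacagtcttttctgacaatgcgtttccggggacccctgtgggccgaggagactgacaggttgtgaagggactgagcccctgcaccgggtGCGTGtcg

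The upstream Vldlr window held 1 GATA match, written CTATCA in the window, at -124, and 29.8% of all 32851 windows hold at least 1 such match. The downstream Vldlr window held 1 match to the ATF4 composite element at -200, found in 3.97% of all windows. The upstream Lrp8 window held 2 hypoxia element cores, at -81 and at 42, and 43.8% of windows hold at least 1. Of the other Lrp8 starts, 1 had no match, and the most downstream one had a hypoxia element core at 21 and a nuclear receptor half-site at -229, the latter present in 16.3% of windows. No sterol regulatory element lay in these 5 windows. Only 1.24% of all windows hold 1, so nothing is read from its absence in so few. A match is a stretch of letters and says nothing of binding. Gata4, the targeted gene, was not analysed here: none of the named probes bears its name, and the knockdown was thus not checked.

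The deposited intensities are linear, background-subtracted and brought to a common distribution. Values of a probe can be set against the same probe on other arrays and not against another probe. Across the 6 arrays, 17705 to 17737 probes lay above a noise floor of 17.1 intensity units, and 17740 probes were tested. All 8 named probes of the 5 genes were above this floor on all 6 arrays. In bulk RNA, a lower signal from fewer cells that express a gene and from less RNA per cell cannot be told apart.

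Lpl was at an intensity of 1837.9, 1720.4 and 1731.7 on Gata4 siRNA arrays 1, 2 and 3 and at 3451.2, 3155.3 and 2987.5 on NT siRNA arrays 1, 2 and 3. The groups did not overlap, and the gap of 1150 intensity units between their nearest arrays was larger than the SD of either group. The means were 1763 ± 64.8 (SD, n = 3) in Gata4 siRNA cells and 3198 ± 235 in control cells, so that the level stood at 55.1% of the control level. On the log2 scale, after correction for dim values and with 16 added to each intensity, the difference was -0.85 ± 0.12 (SE).

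Vldlr had 3 named probes, each in the authors' table of called probes, so their agreement is no independent evidence. The brightest read 5072.6, 4211.5 and 5042.1 on the Gata4 siRNA arrays and 9461.9, 8696.7 and 8601.1 on the NT siRNA arrays, with means of 4775 ± 489 and 8920 ± 472 (SD, n = 3). Its level in Gata4 siRNA cells was 53.5% of the control level, a log2 difference of -0.90 ± 0.13 (SE). The second probe read 3657.1, 3343.7 and 4127.0 against 7698.9, 7228.3 and 7614.7. The third probe read 2967.5, 2980.0 and 3851.9 against 6821.7, 6079.1 and 7172.8. The log2 differences of these probes, -1.02 ± 0.12 and -1.04 ± 0.15, were slightly larger in size than that of the brightest, and in none did the groups overlap.

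Lrp8, the other receptor, was dim. Its probe read 30.6, 22.6 and 30.3 on the Gata4 siRNA arrays and 48.0, 55.7 and 56.6 on the NT siRNA arrays. The highest Gata4 siRNA array and the lowest NT siRNA array were 17.4 units apart, about the size of the noise floor itself. The means of 27.8 ± 4.5 and 53.4 ± 4.7 (SD, n = 3) put the level at 52.1% of control, and the log2 difference was -0.67 ± 0.13 (SE). For so dim a probe the added constant shapes that difference: it was -0.95 with no constant and -0.41 with 50. Its sign could not turn with the constant, as the groups did not overlap.

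Fabp5 was represented by a probe that bears the symbol of a predicted locus, LOC245892, and took the name Fabp5 from its Entrez number. Its sequence was not compared with the gene, so signal from a related locus cannot be told apart from Fabp5 itself. It read 1069.4, 1029.8 and 1408.2 on the Gata4 siRNA arrays and 2494.5, 2101.2 and 2112.4 on the NT siRNA arrays. Gata4 siRNA array 3 stood above the other arrays of its group and still below every control array. The means were 1169 ± 208 and 2236 ± 224 (SD, n = 3), a level of 52.3% of control and a log2 difference of -0.94 ± 0.15 (SE).

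The second Fabp5 probe, deposited under the gene's own symbol, was dimmer and read 148.4, 120.4 and 169.6 against 278.7, 269.3 and 208.5. Array 3 again stood highest in the Gata4 siRNA group, and here NT siRNA array 3 stood lowest among the controls, so that 38.9 units separated the groups. The log2 difference was -0.73 ± 0.16 (SE), against -0.94 ± 0.15 for the brighter probe.

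Scd2, the desaturase gene, had the narrowest spread of the 5 genes in Gata4 siRNA cells on the log2 scale (SD 0.008, n = 3). Its probe read 1547.9, 1532.9 and 1532.9 on the Gata4 siRNA arrays and 2334.1, 2469.6 and 2557.1 on the NT siRNA arrays. The means of 1538 ± 8.7 and 2454 ± 112 (SD, n = 3) gave a level of 62.7% of control and a log2 difference of -0.67 ± 0.11 (SE). The groups were 786.2 units apart.

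**Figure D1:**
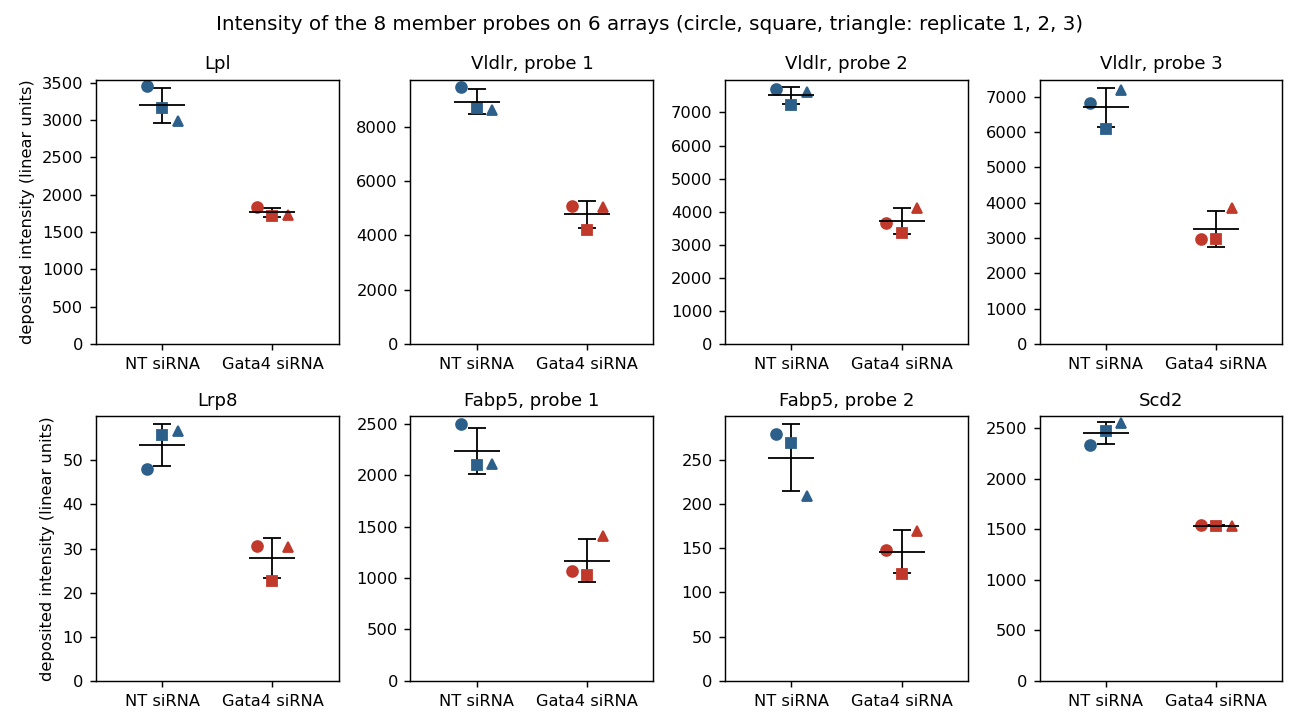
Deposited intensity (linear units, axis from 0) of the 8 probes of the 5 genes on the 3 NT siRNA and 3 Gata4 siRNA arrays, with the group mean and SD as bars and the marker shape giving the replicate. In every panel the 3 Gata4 siRNA arrays lie below the 3 control arrays, by 17.4 units at the nearest arrays for Lrp8 and by 786.2 units for Scd2, each on its own probe's scale.

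The arrays of a group were not ordered alike by the 8 probes. Among Gata4 siRNA arrays, array 2 was lowest for 6 probes, tied with array 3 for Scd2, and was not lowest for the third Vldlr probe, while arrays 1 and 3 were each highest for 4. Among controls, array 1 was highest for 5 probes and array 3 for 3. Lpl and Vldlr had the most similar patterns of the 10 pairs of genes, with a root mean square difference of 0.08 on the log2 scale over the 6 arrays, each gene centred on its own mean. Centring keeps the difference between the groups. Likeness, here and in the next paragraph, thus partly restates how close the differences are by which the genes were chosen. Lrp8 and Scd2 followed at 0.09. Fabp5 and Scd2 were the least alike at 0.23, with centred values of Fabp5 above those of Scd2 on NT siRNA array 1 and below them on Gata4 siRNA arrays 1 and 2.

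Among 1840 other named genes, the pattern nearest to that of Lpl was that of Neurl1a, a ubiquitin ligase gene, at a root mean square difference of 0.017 over the 6 arrays, and then that of P3h1, a collagen prolyl hydroxylase gene, at 0.028. Nearest to Vldlr were Adamts2, which encodes a procollagen protease, at 0.051 and the mitochondrial ferredoxin reductase gene Fdxr at 0.065. For Lrp8 they were the glycogenin gene Gyg at 0.048 and the natriuretic peptide receptor gene Npr3 at 0.053. Fabp5 was nearest to the carbonic anhydrase gene Car12 at 0.054 and the coatomer gene Copz2 at 0.075. Scd2 was nearest to the endoplasmic reticulum membrane gene Wfs1 at 0.056 and the small GTPase gene Rnd3 at 0.058. None of these 10 genes stands in the 6 lipid gene lists used below. Those lists hold only 25 of the 1840 genes, all of them named from the authors' calls, so nothing is read from this.

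**Figure D2:**
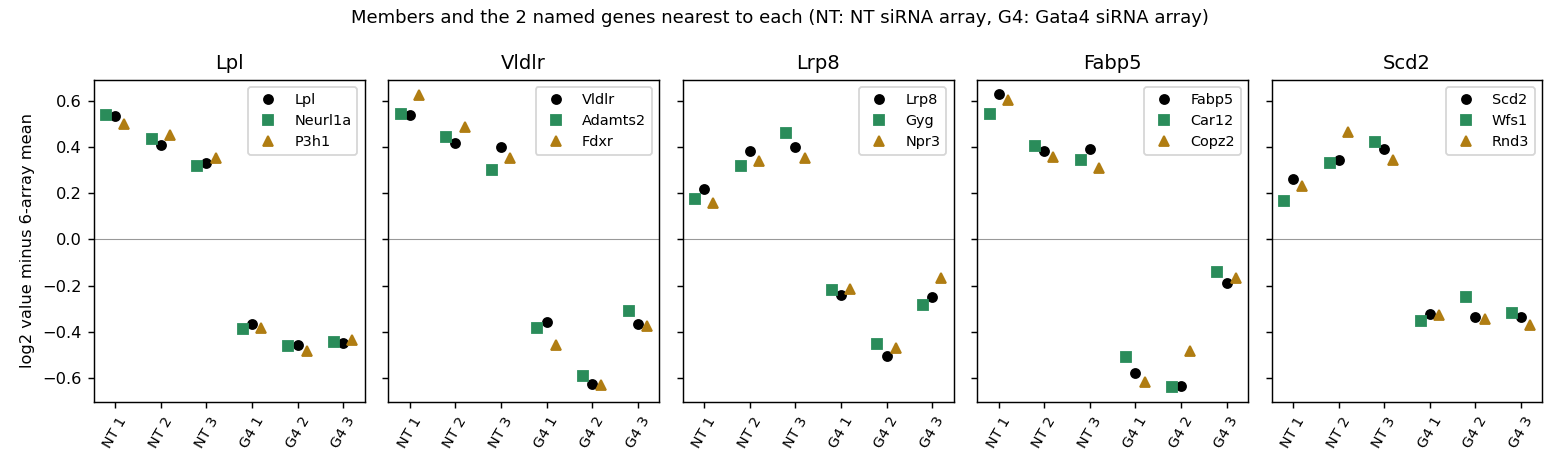
Log2 value minus the gene's own 6-array mean (vertical axis) on each array (horizontal axis; NT for NT siRNA, G4 for Gata4 siRNA, with the replicate number) for each of the 5 genes (circles) and the 2 named genes nearest to it (squares and triangles). The points of Lpl and Neurl1a nearly coincide (root mean square difference 0.017), and the Fabp5 panel alone has Gata4 siRNA array 3 well above arrays 1 and 2.

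The groups did not overlap for any of the 8 probes, and all 8 lay past an adjusted p of 0.05 in the lower direction in limma's fit over all probes. Of all probes tested, 16.2% had groups that did not overlap with Gata4 siRNA lower, and 4.71% were called lower. Of the 1989 named genes tested, 29.5% were called lower and 25.9% higher. Because the same contrast chose the 5 genes, nothing is read from these counts. Without Gata4 siRNA array 1, and likewise without Gata4 siRNA array 2, 4 of the 8 probes passed, those of Lpl and Vldlr. The median log2 difference of the 5 genes was -0.85, against 0.01 for all probes tested and 0.27 for the named genes. Between 0.986% (Fabp5) and 3.36% (Lrp8) of all probes tested had a lower difference than the probe of a gene.

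**Figure D3:**
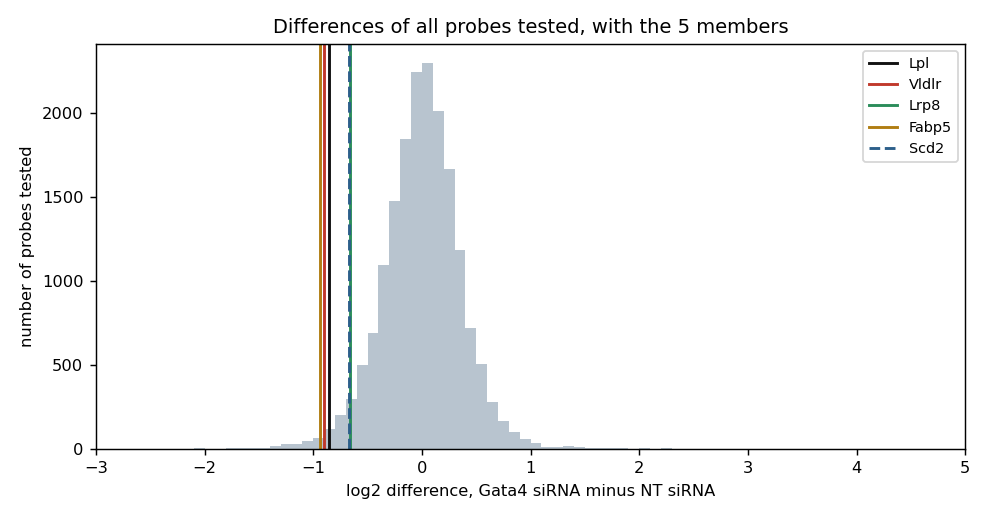
Number of probes (vertical axis) by log2 difference, Gata4 siRNA minus NT siRNA (horizontal axis, bins of 0.1), over the 17740 probes tested, with vertical lines at the 5 genes. Vldlr, Fabp5 and Lpl lie between -0.94 and -0.85 in the lower tail, and the lines of Lrp8 and Scd2 coincide at -0.67.

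**Figure D4:**
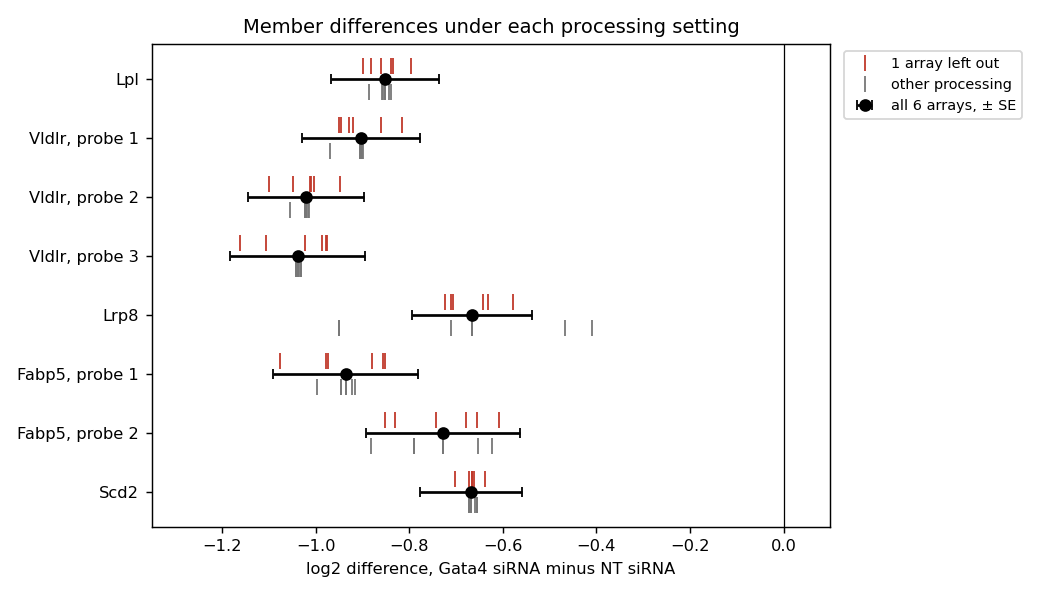
Log2 difference, Gata4 siRNA minus NT siRNA (horizontal axis), for each of the 8 probes, with the SE of the fit on all 6 arrays (black), the values with 1 array left out (red ticks) and those under other processing (grey ticks). All values lie below 0, which the lack of overlap between the groups largely fixes, and Lrp8 spans the widest range, from -0.95 to -0.41.

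Other genes of lipid handling were read from 6 lists of 158 genes in all. Of these genes 30 could be named, the 5 among them, and since every name comes from the authors' calls, neither their directions nor their passing is independent evidence. In limma's fit 18 of the 30 fell, 3 rose and 9 did not pass, with a median log2 difference of -0.55, where 29.5% of all named genes fell and 25.9% rose, with a median of 0.27. Without the 5 genes 13 of 25 fell and 3 rose, with a median of -0.49. The counts of single lists below stand against the same shares, and nothing is called particular to a list. When Gata4 siRNA array 1 was left out 5 genes fell, and when Gata4 siRNA array 2 was left out 4 did. Leaving out NT siRNA array 1 gave 7 and leaving out NT siRNA array 2 gave 9. The number that rose was 1 without Gata4 siRNA array 1 and 2 without any other single array.

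In the list of the lipase system and lipoprotein receptors, 5 of 7 named genes fell, 1 rose and 1 did not pass. The gene that rose was Angptl4, whose secreted product inhibits lipoprotein lipase. It read 3655.1, 4053.7 and 3520.4 on the Gata4 siRNA arrays and 1567.3, 1666.2 and 1602.6 on the NT siRNA arrays. Its groups did not overlap and its log2 difference was 1.21 ± 0.12 (SE; limma adjusted p = 0.00266), opposite in sign to that of Lpl. Sel1l and Lmf1, whose products help lipases to fold and leave the endoplasmic reticulum, fell by 0.60 ± 0.12 (limma adjusted p = 0.0227) and by 0.53 ± 0.13 (limma adjusted p = 0.0427). Dab2, an endocytic adaptor of the receptor family, was at -0.25 ± 0.11 (limma adjusted p = 0.191).

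Among genes of fatty acid uptake, activation and binding, 2 of 5 named genes fell, Fabp5 and Acot1, and 3 did not pass. Acot1, a cytosolic acyl-CoA thioesterase, fell by 0.71 ± 0.14 (limma adjusted p = 0.025). The acyl-CoA synthetase genes Acsl4 and Acsl3, which activate fatty acids, were at -0.39 ± 0.11 (limma adjusted p = 0.0711) and -0.33 ± 0.12 (limma adjusted p = 0.117). The thioesterase gene Acot7 was at 0.32 ± 0.11 (limma adjusted p = 0.124), and its 3 probes did not pass.

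In fatty acid synthesis, elongation and desaturation, 5 of 6 named genes fell and 1 did not pass. Acss2, which makes acetyl-CoA from acetate, fell by 1.16 ± 0.17 (limma adjusted p = 0.00958), reading 158.1, 102.4 and 147.2 against 354.4, 325.5 and 279.9. Tecr, the reductase that closes the elongation cycle, fell by 0.83 ± 0.13 (limma adjusted p = 0.0101) by its brightest probe. Its dimmer probes were at -0.46 ± 0.11 and -0.64 ± 0.13 (limma adjusted p = 0.0433 and 0.0266). Scd1, the close relative of Scd2, fell by 0.46 ± 0.12 (limma adjusted p = 0.0479), from 4411 ± 268 to 3202 ± 185 (SD, n = 3). The polyunsaturated fatty acid desaturase Fads1 fell by 0.57 ± 0.11 (limma adjusted p = 0.0238). Fads2 was at -0.49 ± 0.14 by its brighter probe (limma adjusted p = 0.0636), while its dimmer probe passed (limma adjusted p = 0.0373).

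For triglyceride synthesis and storage, 3 of 4 named genes fell and 1 did not pass. Lpin1, a phosphatidate phosphatase, had the largest fall of the 30 genes, 1.21 ± 0.14 (limma adjusted p = 0.00474). Its probe was dim, at 34.9, 40.4 and 39.8 against 123.8, 116.9 and 89.5, with all arrays above the noise floor. Hilpda, a lipid droplet protein that restrains lipolysis, fell by 0.79 ± 0.17 (limma adjusted p = 0.0321), and Dgat2, which completes triglyceride synthesis, fell by 0.71 ± 0.17 (limma adjusted p = 0.0428). Soat1, which esterifies cholesterol, was at 0.39 ± 0.13 (limma adjusted p = 0.0992).

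Fatty acid oxidation had 3 named genes, of which 1 rose and 2 did not pass. Slc25a20, the carrier that brings acylcarnitines into mitochondria, rose by 0.52 ± 0.12 (limma adjusted p = 0.0367). Etfdh, which passes electrons from oxidation to the respiratory chain, was at 0.37 ± 0.12 (limma adjusted p = 0.0856) and the peroxisomal thiolase gene Acaa1a at -0.30 ± 0.11 (limma adjusted p = 0.128). Of 5 named transcription regulators 3 fell, 1 rose and 1 did not pass. Insig2 and Insig1, whose products hold sterol-regulated transcription factors in the endoplasmic reticulum, fell by 0.68 ± 0.13 (limma adjusted p = 0.0223) and by 0.50 ± 0.11 (limma adjusted p = 0.0353).

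Rxra, the partner of several lipid-sensing nuclear receptors, fell by 0.61 ± 0.12 (limma adjusted p = 0.0219), and Nr1h2, which encodes such a receptor, was at -0.29 ± 0.12 (limma adjusted p = 0.156). The coactivator gene Ppargc1a rose by 0.98 ± 0.16 (limma adjusted p = 0.0115), reading 169.8, 159.2 and 187.9 on the Gata4 siRNA arrays and 61.2, 90.2 and 89.2 on the NT siRNA arrays.

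**Figure D5:**
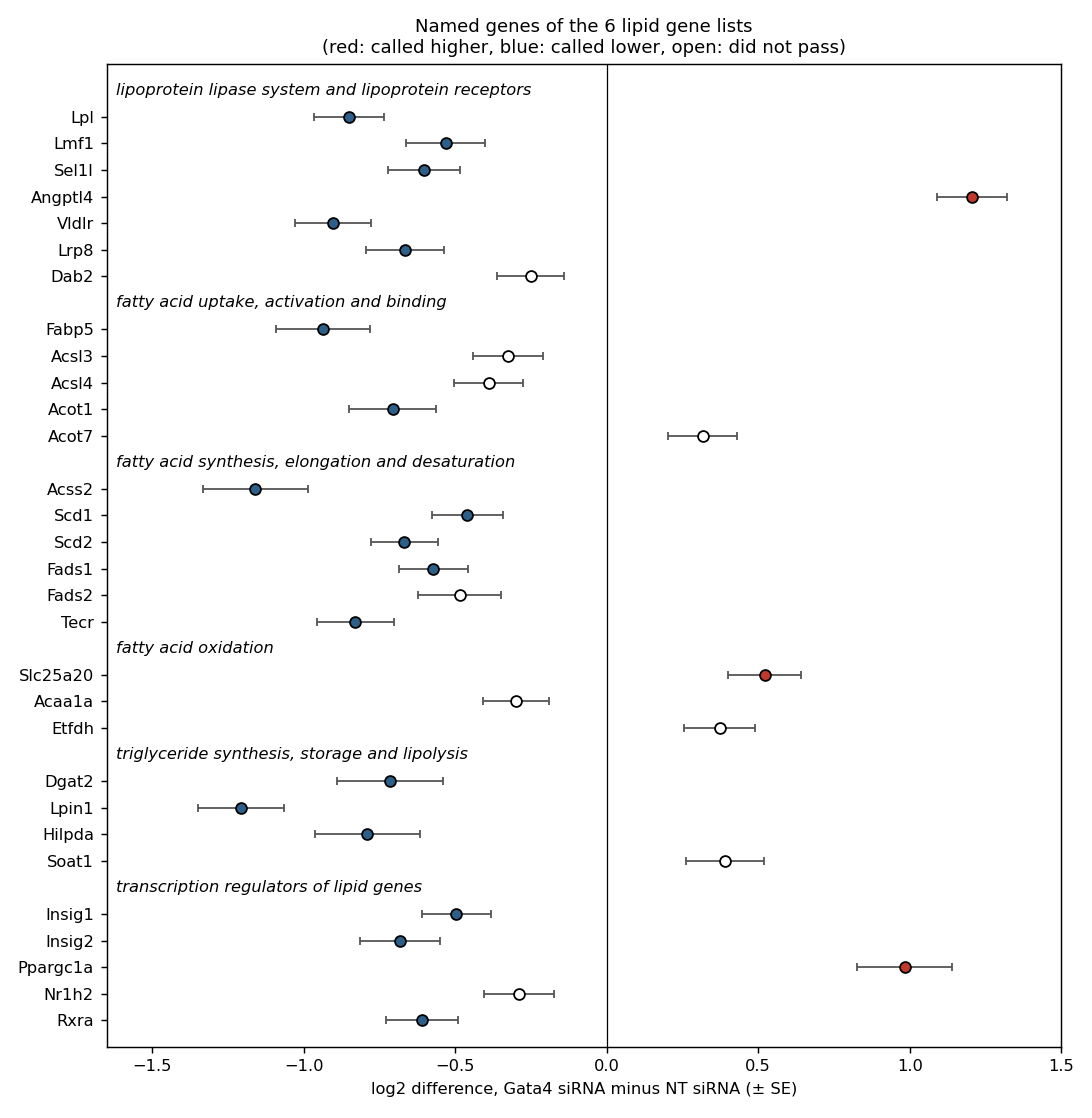
Log2 difference, Gata4 siRNA minus NT siRNA, with its SE (horizontal axis) for the 30 named genes of the 6 lipid gene lists (vertical axis), filled blue where called lower, red where called higher and open where the gene did not pass. The 3 red points are Angptl4 (1.21), Slc25a20 (0.52) and Ppargc1a (0.98), and Lpin1 (-1.21) and Acss2 (-1.16) lie farthest to the left.

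Markers of cell types were named only where the authors had called them. Of 17 Sertoli markers 3 were named: Sox9 rose by 0.59 ± 0.11 (limma adjusted p = 0.0215), and Inhbb and Tjp1 fell by 0.53 ± 0.12 and by 0.67 ± 0.16 (limma adjusted p = 0.0349 and 0.0371). The Inhbb probe bears the symbol of a predicted locus, LOC100046802, and took its name from its Entrez number, so a related locus cannot be told apart. Lpl and Fabp5 are also expressed by adipocytes and macrophages. Of 8 adipocyte markers 0 were named and of 8 macrophage markers 1, Cd14, which read 716.0 to 781.9 on Gata4 siRNA arrays and 520.2 to 619.0 on NT siRNA arrays (log2 difference 0.39 ± 0.12, limma adjusted p = 0.0804). All 4 named peritubular myoid markers of 7, Acta2, Tagln, Actg2 and Mylk, rose. Their log2 differences were 0.53 ± 0.12, 0.93 ± 0.15, 0.73 ± 0.12 and 0.72 ± 0.16 (limma adjusted p = 0.0308, 0.0112, 0.0141 and 0.0321). Of all named genes 25.9% rose and 29.5% fell, and since a name required the authors' call, nothing is read from these counts. Endothelial, Leydig and germ cell lists had 0 named markers. The part of these markers in the lower levels of the 5 genes was not tested.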

How the data were processed

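Total RNA of 6 samples was labelled with biotin and hybridized to Illumina MouseWG-6 arrays, per the labels' protocols. Sample titles gave the group and the replicate number. The deposited intensity values are linear, with 37.1% below 0 and nearly the same distribution on each array. The submitters' processing notes name GenomeStudio, with settings not given in the sources used here. Another 18 per-array columns carry names that fit no sample label and stayed unused, so the planned start from non-normalized signals was not run.

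From the deposited intensities, log2 values were computed after normexp, with the background centred on 0, its SD of 9.40 estimated from the negative values, and an offset of 16. This understates differences of dim probes. Probes above the noise floor of 17.1 (95th percentile of the absolute negative values) on at least 3 of 6 arrays were tested with limma 3.58.1 in R 4.3.3 (lmFit and eBayes, two-sided, Benjamini-Hochberg over all probes tested, threshold 0.05). Every adjusted p is from this fit.

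Gene names came from the symbols and Entrez numbers of the authors' deposited table, updated with RefSeq GRCm38.p6, and its fold change and p columns were not used. Of its 2415 probes 465 were renamed, 14 were dropped for a symbol at odds with its number and 1 for a symbol turned into a date. The brightest probe stands for a gene. The text names the 5 genes, the named genes of the lists, all named markers and, for each of the 5, the 2 nearest named genes. The members and lists were chosen with earlier results of these data known. Precision is limited by having 3 arrays per group, and if replicates were not separate cultures the p-values reflect technical spread only. Figures were drawn with matplotlib 3.10.9.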

Additional observations from a re-analysis of the deposited data

How the results depend on the processing

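Every difference of the 8 probes kept its sign under other treatments of dim values, array weights and a second quantile normalization. The same held with the named probes of a gene averaged and with each array left out. As the groups did not overlap for any of the 8 probes, array weights, another offset, a floor or an array left out could not turn a sign. Averaging could not either, since every probe averaged was lower, and Lpl, Lrp8 and Scd2 had 1 named probe each. The kept signs are therefore no evidence. Other filters, variance models and a replicate block were also run, but these can change only the p-values and the calls, not a difference. With all 6 arrays in the fit, the differences of Lpl, Vldlr, Fabp5 and Scd2 moved by less than the pooled SD within groups under these alternatives. That of Lrp8 was -0.47 with normexp fitted on each array, -0.95 with no offset, -0.41 with an offset of 50 and -0.95 with values floored at 1, and the offsets are of the size of its intensities. Over the arrays left out, it ranged from -0.72 to -0.58, that of Lpl from -0.90 to -0.80, of Vldlr from -0.95 to -0.82, of Fabp5 from -1.08 to -0.85 and of Scd2 from -0.70 to -0.64.

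The 1558 probes called in the whole table became 3079 with array weights, 2384 with an intensity trend and robust eBayes, 1021 with no offset, 734 with values floored at 1 and between 257 and 1602 with 1 array left out. Of the lipid gene lists, 4 to 16 named genes fell and 1 to 2 rose with 1 array left out, and 6 rose with the intensity trend. Same-numbered arrays did not deviate together (r of -0.055, -0.0884 and -0.0113). With 3 arrays per group this cannot decide whether the numbers pair the samples, and the labels do not say. With the number as a replicate block, 736 probes and 7 lipid genes that fell were called, and 6 of the 8 probes passed. Both groups hold the same numbers, so this block cannot change a difference, and it left those of the 5 genes as they were. The causes of the moved counts were not tested. Low signal over background limits how well the size of the Lrp8 difference is known.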
